A study of Mus musculus with 3 samples.

Results

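The regulators of the integrated stress response and of the unfolded protein response were measured in chromatin-bound RNA of mouse macrophages. They are 10 genes, taken by their names in the GENCODE M21 annotation from the 55536 annotated genes of each library: Ppp1r15a, Ppp1r15b, Atf4, Ddit3, Xbp1, Eif2ak3, Ern1, Atf6, Trib3 and Chac1. The names match 11 gene records, because a second short record also carries the name Ddit3. The cells were primary macrophages grown from the bone marrow of C57BL/6J mice. They received Lipid A, the lipopolysaccharide anchor by which TLR4 senses Gram-negative bacteria, at 100 ng/ml for 12 h. A washout of 12 h and a second dose of 100 ng/ml for 25 min followed. RNA of the chromatin fraction, which holds transcripts still on their gene or retained in the nucleus, was depleted of ribosomal RNA and sequenced in 3 libraries. All 3 had this treatment, and no untreated or once-treated sample was analysed here, so the values are levels within 1 state and none of them is a response to Lipid A. Per the labels the libraries are biological replicates with 1 donor identifier, without a statement that they came from separate animals, and the age and sex of the mice were not collected. Errors and tests therefore measure the spread between these libraries, which may be technical in part.

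Both responses adjust protein synthesis and the folding capacity of the endoplasmic reticulum (ER). In the integrated stress response, kinases such as PERK (the product of Eif2ak3) phosphorylate the translation factor eIF2alpha, which lowers general translation while the transcription factor ATF4 is made more efficiently. ATF4 and its target CHOP (the product of Ddit3) activate further genes, among them Trib3, Chac1 and Ppp1r15a, and the Ppp1r15a product brings a phosphatase back to eIF2alpha. In the unfolded protein response the other ER sensors are IRE1 (the product of Ern1), which cuts the Xbp1 messenger RNA so that an active transcription factor is made, and ATF6, a membrane-held transcription factor released by proteases. In macrophages, signalling through TLR4 is known to engage IRE1 and XBP1 and to hold back CHOP.

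Levels are given in TPM, transcript abundance corrected for transcript length and scaled to a common library total, from the deposited gene tables. Errors are SDs over the libraries (n = 3), and coordinates are those of GRCm38 (mm10). The annotated genes took between 13502401 and 17848798 expected counts per library, and a count of 0 allows up to 0.222 CPM (counts scaled to the library total) in replicate 1 and 0.168 CPM in replicates 2 and 3, for counting error only. Replicate 2 started from the least RNA (250 ng, beside 500 ng for replicate 3 and 1 µg for replicate 1), and a ribosomal RNA locus on chromosome 17 took 11.1%, 31.8% and 24.8% of the counts. All 8 macrophage markers examined were detected, with means from 33.1 TPM (Itgam) to 298 TPM (Adgre1) and a summed level of 869 to 945 TPM. Of 28 markers of 7 other cell types (T cell, B cell, neutrophil, fibroblast, erythroid, dendritic and plasma cell), 0 were detected in the gene tables, the highest single value was 0.96 TPM (Mzb1, from 1 count) and 5 were at 0 in every library. Below that level the libraries were not alike for fibroblast genes. Col1a1 had 0, 32 and 42 counts in replicates 1 to 3, Col1a2 1, 23 and 17, and Col3a1 0, 16 and 18. Pdgfra had 1 count, in replicate 3. The second quantification (the other deposited transcript tables, summed per gene) put 6 of the 28 at 1 TPM or more in every library, with Cd3d, a T cell gene, at a mean of 12.1 TPM where the gene tables gave 0.03 TPM from 1, 0 and 1 counts. The cause of that disagreement was not tested. The replicates differed by more than sampling noise in every pair.

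Of the 10 genes, 9 were detected, defined as at least 1 TPM in every library, where 44% of the protein-coding genes were. The gene below that level in 1 library was Chac1. The median of log2(TPM + 1) over the 10 genes was 4.81 ± 0.13 (mean of the library medians), beside 0.61 ± 0.03 over all protein-coding genes and 3.56 ± 0.03 over the detected ones. The mean levels ran from 101 TPM for Ppp1r15a down to 1.12 TPM for Chac1. In bulk RNA, fewer cells with a transcript and less of it per cell cannot be told apart.

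**Figure D1:**
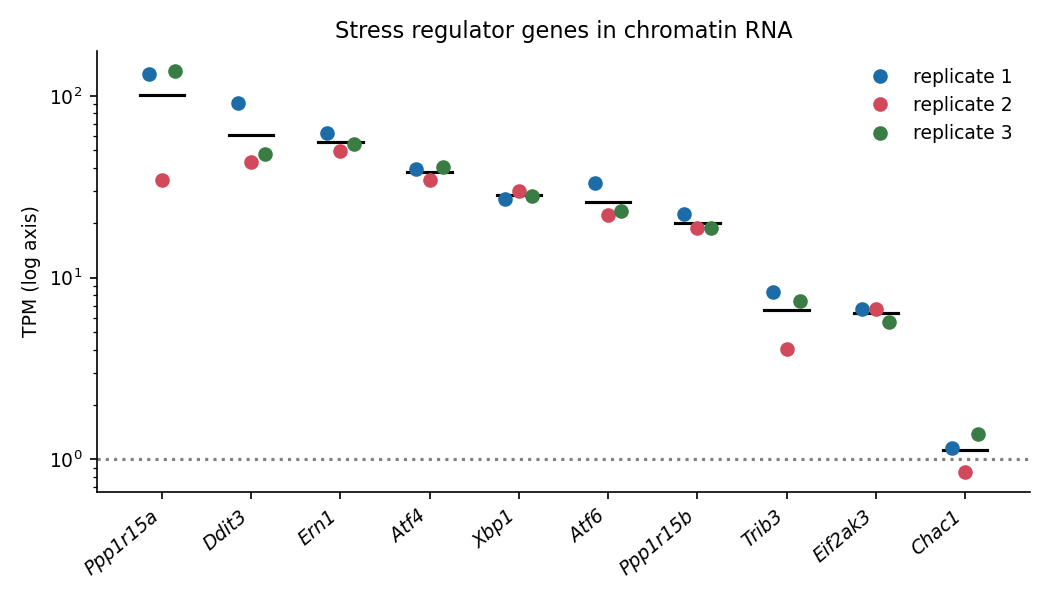
TPM of each of the 10 genes (log axis) in replicates 1, 2 and 3, with the mean as a black bar and the detection level of 1 TPM dotted. Ppp1r15a is at 34.56 TPM in replicate 2 and at 131.82 and 137.18 TPM in the others, Ddit3 is highest in replicate 1, and Xbp1 lies between 27.14 and 29.78 TPM.

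The phosphatase subunits came first in the order and seventh. Ppp1r15a (ENSMUSG00000040435, chr7:45522916-45526268, minus strand), the inducible subunit known as GADD34, was measured at 131.82, 34.56 and 137.18 TPM in replicates 1, 2 and 3, from 4265, 1227 and 4746 expected counts (101 ± 57.8 TPM). Its mean was above that of 97.8% of protein-coding genes. Replicate 2 stood far below both others. Ppp1r15b (chr1:133131143-133139783, plus strand), the constitutive subunit CReP, was measured at 22.36, 18.65 and 18.80 TPM (19.9 ± 2.10). Its values lay close together.

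Ppp1r15a exceeded Ppp1r15b 5.90-fold in replicate 1, 1.85-fold in replicate 2 and 7.30-fold in replicate 3. The difference in log2(TPM + 1) was 2.06 ± 1.05 and had the same direction in 3 of 3 libraries. This holds for the gene totals. The transcript Ppp1r15a-201 alone stood at 39.83, 11.15 and 37.96 TPM and Ppp1r15b-201 at 18.03, 15.55 and 14.31 TPM, so their order turned in replicate 2. It turned there in the second quantification as well. An exact two-sided sign-flip test gave p = 0.25, the smallest value that 3 libraries allow, and p = 0.25 after Benjamini-Hochberg adjustment over the 4 pairs compared. Because that test cannot reach a threshold of 0.05 here, the statements on pairs rest on sizes, spread and the number of libraries. The annotated coding sequences of the subunits, of 1971 and 2091 bases, had a longest identical run of 11 bases, so they share no long coding sequence that could exchange reads. Their untranslated and intron sequences were not compared.

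The proximal promoter of Ppp1r15a is printed because this gene had the highest level and the widest spread of the 10. RefSeq (GRCm38.p6) promoter windows, 250 bases before to 50 after the annotated start, were on hand for 8 of the 10 genes, Ppp1r15b and Atf6 being the others. The window before the start holds the palindrome TGACGTCA, the cyclic AMP response element to which factors of the CREB and ATF family bind, and its capitals mark that element, which begins 12 bases before the start (chr7:45526269-45526518, minus strand).
Ppp1r15a promoter: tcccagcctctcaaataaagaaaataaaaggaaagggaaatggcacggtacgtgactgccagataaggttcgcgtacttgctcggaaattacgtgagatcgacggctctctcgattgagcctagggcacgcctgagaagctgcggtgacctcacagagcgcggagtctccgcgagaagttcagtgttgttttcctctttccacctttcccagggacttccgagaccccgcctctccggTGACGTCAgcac
Among 32851 promoter windows of the same length, 1.79% hold TGACGTCA on either strand, and Ppp1r15a was the member gene that did. A match of letters is a description and does not show binding.

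Most of the estimated abundance of Ppp1r15a was assigned to a transcript that keeps an intron. In chromatin RNA a retained intron and an intron not yet spliced out cannot be told apart from these values. The annotated transcript Ppp1r15a-202, typed protein_coding, retains the first intron of Ppp1r15a-201 (603 bases), which lies ahead of the coding start. It held 68.5%, 59.3% and 54.5% of the gene's transcript TPM in replicates 1 to 3 (60.8% ± 7.08), and 61.4% ± 4.70 in the second quantification of the same libraries. In TPM, Ppp1r15a-202 stood at 90.27, 20.51 and 74.81 and the spliced Ppp1r15a-201 at 39.83, 11.15 and 37.96. Both transcripts were lowest in replicate 2, so the low gene value there was not confined to 1 isoform. The short Ppp1r15a-203 (389 bases) stood at 1.72, 2.90 and 24.41 TPM, from 4.23, 6.57 and 65 counts, and was lowest in replicate 1. In the second quantification it was lowest in replicate 2, at 7.36, 1.53 and 11.6 TPM in replicates 1 to 3.

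Among the ER stress sensors, Ern1 was the most abundant and Eif2ak3 the least. Ern1 (chr11:106394650-106487852, minus strand), which encodes the kinase and RNase IRE1, was measured at 62.67, 49.93 and 54.55 TPM (55.7 ± 6.45), from 2652 to 3191 expected counts. Atf6 (chr1:170704674-170867771, minus strand) was at 33.25, 21.96 and 23.18 TPM (26.1 ± 6.20). Eif2ak3 (chr6:70844515-70905245, plus strand), the gene of the kinase PERK, was at 6.75, 6.72 and 5.69 TPM (6.39 ± 0.604), from 247 to 306 expected counts. The 3 sensors kept the order Ern1, Atf6, Eif2ak3 in every library, and their ranges did not overlap.

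Eif2ak3 was below Ern1 by 2.94 ± 0.19 on the log2(TPM + 1) scale, and Ern1 was above Atf6 by 1.08 ± 0.16 (1.5 ± 0.12 in the second quantification). Each difference had the same direction in 3 of 3 libraries (exact two-sided sign-flip p = 0.25 each, adjusted p = 0.25). The ratio of Ern1 to Atf6 was 1.88, 2.27 and 2.35 in replicates 1, 2 and 3. In TPM, the higher Atf6 value of replicate 1 lay mainly in Atf6-202. This is a single-exon transcript of type retained_intron with 1985 of its 2085 bases inside introns of Atf6-201. It stood at 16.29, 8.09 and 9.69 TPM, and the full Atf6-201 at 16.95, 13.87 and 13.49 TPM. In the second quantification the excess was divided more evenly. There Atf6-202 stood at 14.6, 5.90 and 8.01 TPM and Atf6-201 at 18.2, 12.5 and 12.2 TPM. The transcript Ern1-201 was above Atf6-201 in every library of both quantifications, but by less than the gene totals. It stood at 27.89, 19.51 and 23.18 TPM, and at 24.3, 13.4 and 16.8 TPM in the second quantification.

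The transcription factors Atf4, Ddit3 and Xbp1 lay between 28.4 and 60.8 TPM. Atf4 (chr15:80255184-80257541, plus strand), the main effector of eIF2alpha phosphorylation, was measured at 39.47, 34.35 and 40.77 TPM (38.2 ± 3.39), with little spread. Ddit3 (chr10:127290774-127296288, plus strand) was at 91.34, 43.14 and 48.04 TPM (60.8 ± 26.5), from 818, 470 and 530 expected counts. Replicate 1 was well above both others for Ddit3 and not for Atf4. Atf4 was lower than Ddit3 in 3 of 3 libraries by 0.58 ± 0.53 (exact two-sided sign-flip p = 0.25, adjusted p = 0.25), a mean difference close to its own spread. In the second quantification the same difference was -1.17 ± 0.48, larger and beyond its spread. By the first quantification the difference was -1.19 in replicate 1, -0.32 in replicate 2 and -0.23 in replicate 3.

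The isoforms of Ddit3 did not vary alike. The full transcript Ddit3-201 stood at 22.63, 20.15 and 19.52 TPM in replicates 1 to 3, a narrow range. Atf4-201 stood at 19.29, 15.80 and 22.35 TPM, so between these transcripts the order of the gene totals turned in replicate 3. In the second quantification Atf4-201 was below Ddit3-201 in every library. The transcript Ddit3-202 of type retained_intron, with 823 of its 969 bases inside introns of Ddit3-201, stood at 51.19, 22.99 and 21.40 TPM. Ddit3-203, a shorter protein_coding transcript, stood at 17.52 and 7.12 TPM in replicates 1 and 3 and was listed at 0 in replicate 2 by both quantifications. The excess of replicate 1 was thus in the intron-holding and the short transcript. The second record named Ddit3 (chr10:127290829-127293753), a transcript of 105 bases within the exons of Ddit3-201, had 0 counts and an effective length of 0 in the first quantification. The second quantification gave it 14.0, 62.9 and 20.2 TPM from only 3.84, 27.0 and 10.2 estimated counts, because so short a length turns few reads into a high TPM.

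The Ddit3 promoter is printed for comparison with that of Ppp1r15a, since these genes had the highest means. Its capitals mark a match to TGANTCA, the site of AP-1 (Fos and Jun) factors, which begins 242 bases before the start (chr10:127290543-127290792, plus strand).
Ddit3 promoter: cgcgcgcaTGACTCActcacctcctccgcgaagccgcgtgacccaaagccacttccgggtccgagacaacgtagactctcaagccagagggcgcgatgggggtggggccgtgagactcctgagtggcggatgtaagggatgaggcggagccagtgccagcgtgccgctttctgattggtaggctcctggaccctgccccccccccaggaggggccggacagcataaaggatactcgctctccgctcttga
The AP-1 letters were found on either strand in 7.81% of all windows, and in 2 of the 8 member windows, those of Ddit3 and Eif2ak3. The ER stress element (CCAAT, any 9 bases, CCACG) and an NF-kB site (GGGA, any base, TTTCC) had no match on either strand in the 8 member windows, beside 0.119% and 0.411% of all windows. Only these exact letters were searched, so variant sites were not counted, and the lack of a match does not show that such an element is absent. The printed Ddit3 window holds a near match, cgtgccgctttctgattgg, which reads CCAAT, 9 bases and GCACG on the other strand.

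Xbp1 (chr11:5520659-5525893, plus strand) was measured at 27.14, 29.78 and 28.20 TPM (28.4 ± 1.33), from 400, 510 and 516 expected counts, the narrowest range of the 10 genes by ratio of highest to lowest TPM. The switch of Xbp1 rests on 26 bases of exon 4 of 5 that IRE1 removes, between cuts in a pair of CNGCAGC loops. The segment is shown in capitals within its coding context (chr11:5524255-5524328, plus strand, segment chr11:5524279-5524304), because its removal is the known readout of Ern1.
Xbp1 coding: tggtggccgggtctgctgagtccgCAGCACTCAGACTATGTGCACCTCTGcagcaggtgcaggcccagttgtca
The annotated transcripts Xbp1-201, Xbp1-203 and Xbp1-204 contain the segment, and Xbp1-202 ends upstream of it. Since no annotated transcript joins the flanking bases, reads of the cut form have no transcript of their own in these tables, and the level of active Xbp1 cannot be read from them. What the tables do show is intron content: Xbp1-202, of type retained_intron, held 39.8% ± 2.19 of the transcript TPM, and Xbp1-203, which keeps the 300-base intron 4 and is typed protein_coding, held 20.9% ± 2.93.

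The targets Trib3 and Chac1, unlike Ddit3 and Ppp1r15a, were at the low end of the 10 genes, where Eif2ak3 also lay. Trib3 (chr2:152337422-152344032, minus strand), a pseudokinase that dampens ATF4 and CHOP activity, was measured at 8.33, 4.02 and 7.47 TPM (6.61 ± 2.28), from 150, 93 and 211 expected counts. Like Ppp1r15a, it had its low value in replicate 2 and similar values in replicates 1 and 3. Chac1 (chr2:119351229-119354381, plus strand), an enzyme that degrades glutathione, was at 1.15, 0.85 and 1.37 TPM (1.12 ± 0.261), from only 22, 19 and 33 expected counts. At this depth its differences between libraries are poorly resolved.

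Trib3 and Chac1 are textbook targets of the C/EBP-ATF response element (TGATGNAA), the composite site for ATF4 with C/EBP partners. Within the windows examined, these were the 2 of 8 member genes with a match, beside 3.97% of all promoter windows. The match began 193 bases before the start of Chac1 (chr2:119351038-119351067, plus strand) and 15 bases after that of Trib3 (chr2:152344028-152344057, minus strand). Positions are counted from the RefSeq start, which for Trib3 lies upstream of the GENCODE start given above, so that the match is outside the GENCODE gene. It reads on the strand opposite to the gene in both and is shown in capitals.
Chac1 promoter: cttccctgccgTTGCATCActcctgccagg
Trib3 promoter: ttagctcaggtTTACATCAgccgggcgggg

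In the order of mean TPM, neighbours that did not differ beyond their spread were Ppp1r15a and Ddit3, Ddit3 and Ern1, Xbp1 and Atf6, and Trib3 and Eif2ak3: in each of these pairs the order turned in at least 1 library. Atf6 was above Ppp1r15b in 3 of 3 libraries although their ranges overlapped. The steps from Ern1 to Atf4, from Atf4 to Xbp1, from Ppp1r15b to Trib3 and from Eif2ak3 to Chac1 had 3 of 3 libraries in the same order and ranges that did not overlap. The gene with the levels most like those of Ppp1r15a, by the largest absolute difference in log2(TPM + 1) over the 3 libraries, was Marcksl1 (difference 0.54; 99.30, 47.57 and 93.95 TPM), followed by Plk2 (0.55) and Plek (0.55). Nearest to Ddit3 were Ifit1 (0.10; 93.96, 42.59 and 44.80 TPM), Phf21a (0.13) and Cblb (0.13). With 3 libraries such likeness describes levels only.

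Replicate 2 was the low library for most of these genes. On log2 CPM with TMM scaling, 8 of 10 were lowest there, where 33.3% of the 10969 protein-coding genes past the filter on low counts were. Xbp1 and Eif2ak3, the 2 exceptions, were lowest in replicate 1, where 43% of those protein-coding genes were. The size of the deviation was uneven: relative to its mean over the libraries, Ppp1r15a stood at -1.29, Trib3 at -0.65 and Ddit3 at -0.36, and the other 5 lay between -0.35 and -0.06. The middle 90% of protein-coding genes lay between -0.39 and 0.43 in replicate 2, so only Ppp1r15a and Trib3 fell outside that range. Only 11 of the 10969 genes had a deviation lower than Ppp1r15a in replicate 2.

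**Figure D2:**
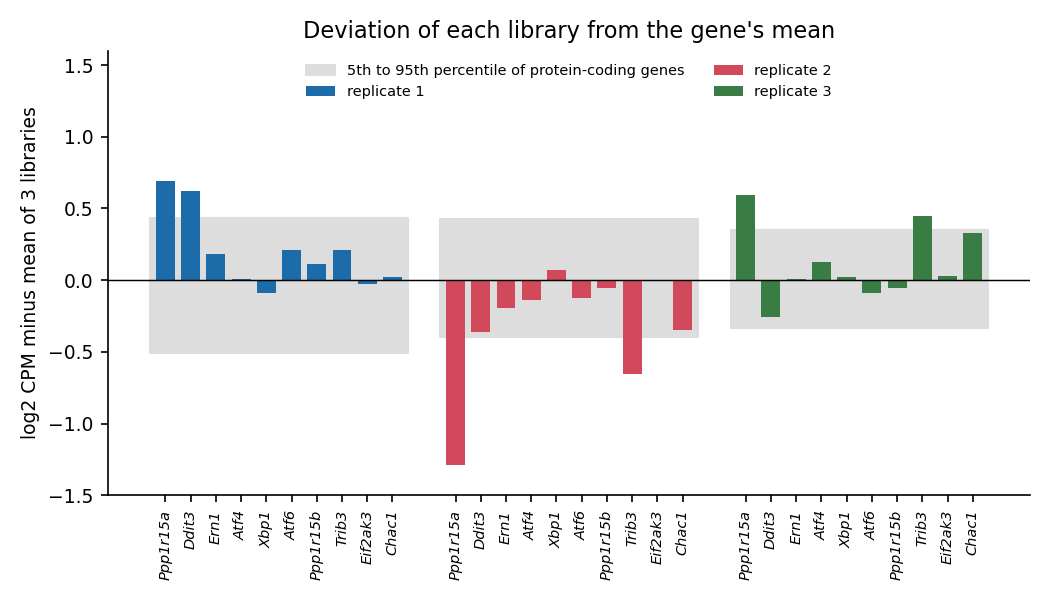
Deviation of log2 CPM (TMM scaling) from the gene's mean over the libraries, per replicate, with a grey band from the 5th to the 95th percentile of protein-coding genes. Ppp1r15a (-1.29) and Trib3 (-0.65) lie below the band in replicate 2, Ddit3 (0.62) and Ppp1r15a (0.69) above it in replicate 1, and Ppp1r15a (0.59) and Trib3 (0.44) above it in replicate 3.

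Values above the corresponding range occurred in both other libraries. Ppp1r15a (0.69) and Ddit3 (0.62) lay above it in replicate 1, where the 95th percentile was 0.43, and Ppp1r15a (0.59) and Trib3 (0.44) in replicate 3, where it was 0.35. For Ddit3, 1.87% of protein-coding genes had a higher deviation in replicate 1. Over all libraries, 2 of the 10 genes (Ppp1r15a at 3.95-fold and Trib3 at 2.14-fold) had at least a 2-fold range in scaled CPM, where 8.31% of protein-coding genes did, and Ddit3 came next at 1.98-fold. The spread by edgeR's biological coefficient of variation (BCV, shrunk toward the trend over genes) was 0.372 for Ppp1r15a, above that of 99.0% of the 14193 genes fitted. It was 0.261 for Trib3 and 0.255 for Ddit3, and 0.165 for Ppp1r15b, above only 1.95% of genes. The median over the 10 genes was 0.176, beside 0.197 over protein-coding genes. Among the phosphatase subunits Ppp1r15a varied and Ppp1r15b was steady, and among the transcription factors Ddit3 varied more than Atf4 and Xbp1. Replicate 2 also had the smallest starting amount (250 ng) and the largest share of the ribosomal RNA locus (31.8%). Their part in these deviations was not tested.

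Transcripts of type retained_intron held a large share of several stress genes, about as large as elsewhere in this RNA. Reads of transcripts not yet spliced can be assigned to them, so these shares do not separate intron retention from unfinished splicing. Atf4-203, a single exon that keeps both introns of Atf4-201 (633 bases), held 51.1%, 54.0% and 45.2% of the Atf4 transcript TPM (50.1% ± 4.50). Ddit3-202 held 51.3% ± 6.00 of Ddit3. The transcripts of type retained_intron held 41.5% ± 8.48 of Eif2ak3, 42.6% ± 6.12 of Atf6 and 39.8% ± 2.19 of Xbp1. Over the 4726 protein-coding genes with both transcript classes and at least 5 TPM in every library, the median share was 46.0% with quartiles of 30.8% and 60.6%, and all 5 of these genes lay inside the quartiles. A share of at least 50% occurred in 2 of the 5 (Atf4 and Ddit3) and in 42.8% of those genes. In the second quantification Atf4 remained above 50%, at 52.6%, and Ddit3 stood at 49.5%, where 41.8% of those genes reached that share.

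**Figure D3:**
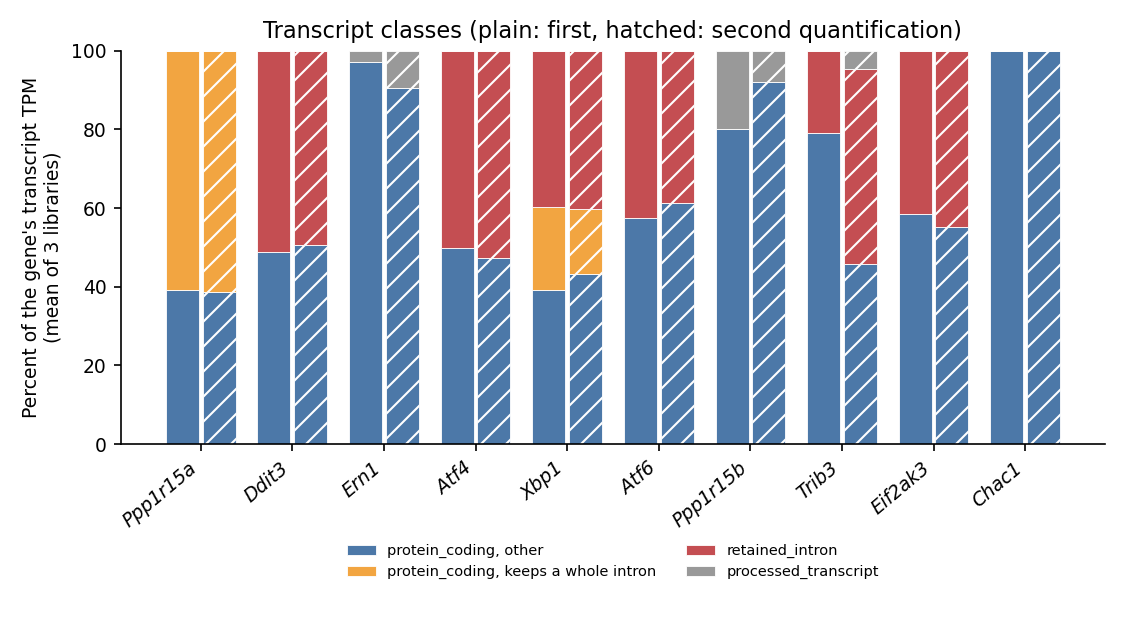
Mean percent of each gene's transcript TPM in annotated transcript classes over 3 libraries, for the first (plain bars) and second (hatched bars) quantification. The protein_coding transcript that keeps a whole intron holds 60.8% of Ppp1r15a, transcripts of type retained_intron hold 50.1% of Atf4 and 51.3% of Ddit3, and Ern1 and Chac1 have none of type retained_intron.

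Protein_coding transcripts held under 50% of transcript TPM in 2 of the 9 detected genes, Atf4 (49.9% ± 4.50) and Ddit3 (48.7% ± 6.00), where 42.3% of detected protein-coding genes did. Both lay within 1 SD of the limit, and leaving out replicate 1 brought the count to 0 and leaving out replicate 2 to 1. In the second quantification the count was also 2, but of Atf4 (47.4%) and Trib3 (45.8%), with Ddit3 at 50.5%. For Trib3 the quantifications differed: the retained_intron transcript Trib3-203 held 20.8% ± 10.6 in the first, from 10.16, 3.56 and 3.26 counts, and 49.7% ± 7.16 in the second. Ern1, with no transcript of that type, divided its TPM among several protein_coding transcripts. Of these Ern1-201 held 42.0% ± 2.74 in the first quantification and 26.2% ± 0.53 in the second. Ern1-204 held 28.1% ± 2.92 in the second. Ern1-202, Ern1-203 and Ern1-204 have 352 of 660, 234 of 654 and 585 of 1957 bases inside introns of Ern1-201. The transcript type alone thus does not show how far Ern1 was spliced. By expected counts rather than TPM, which weights long transcripts more, the retained_intron share was 16.5% for Atf6 and 19.1% for Eif2ak3.

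**Figure D4:**
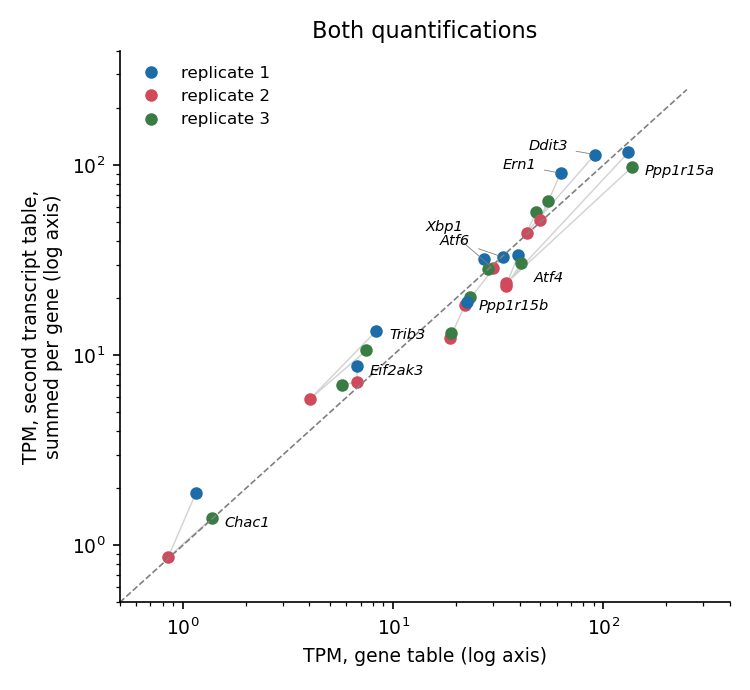
TPM of the gene table against TPM of the second transcript table summed per gene, both on log axes, for the 10 genes in each library, with the line of equal values dashed and grey lines joining the libraries of 1 gene. Ern1, Ddit3, Trib3, Eif2ak3 and Chac1 lie on or above the line in every library, Ppp1r15a, Ppp1r15b, Atf4 and Atf6 below it.

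The second quantification gave means of 79.5 TPM for Ppp1r15a, 71.5 for Ddit3, 69.0 for Ern1, 29.8 for Xbp1, 29.1 for Atf4, 23.8 for Atf6, 14.8 for Ppp1r15b, 9.98 for Trib3, 7.65 for Eif2ak3 and 1.37 for Chac1. At least 1 TPM in every library was again reached by 9 of the 10 genes, where 53.7% of protein-coding genes reached it. The order differed from the first at Xbp1 and Atf4, which changed places. Replicate 2 remained the low library for Ppp1r15a, with 117, 23.9 and 97.8 TPM. Some exons overlap genes on the other strand. Tulp2 shares 12 exonic bases with Ppp1r15a and had 51.1 to 126 counts, Mars shares 68 with Ddit3 and had 348 to 527 counts, and the TEC records Gm26616 and Gm43292 overlap Ppp1r15b and Eif2ak3 with at most 60 counts. The strand setting of the quantification is not given in the sources used here, so reads in these shared bases cannot be assigned to a strand.

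The wider pathways were described with 4 lists. Of the eIF2 kinases and the eIF2 machinery, 17 of 17 measured genes were detected, where 44% of protein-coding genes were. Their median log2(TPM + 1) was 3.64 ± 0.09. Highest were Eif2ak2, the kinase PKR activated by double-stranded RNA (248.20, 167.92 and 129.09 TPM), Impact, an inhibitor of the kinase GCN2 (147.92, 136.08 and 144.54 TPM) and Ppp1cc, a catalytic subunit that the Ppp1r15 products bind (mean 33.9 TPM). The lowest was Eif2b1, a subunit of the exchange factor for eIF2 (mean 3.88 TPM). Eif2ak2 was thus far above Eif2ak3, at a mean of 182 against 6.39 TPM, and it was higher in 3 of 3 libraries.

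Of 30 ATF4 and CHOP targets, 22 were detected, where 44% of protein-coding genes were. The median was 2.88 ± 0.27 over all 30, beside 0.61 over all protein-coding genes. The amino acid transporter subunit Slc3a2 led at 112.03, 107.56 and 98.20 TPM, followed by the tRNA synthetase genes Cars (mean 62.4 TPM) and Nars (60.2 TPM). Fgf21, a hormone gene, had 0 counts in all libraries. Slc7a11, Slc7a5, Aldh1l2, Ddit4, Tnfrsf10b, Cth and Vldlr were the others below 1 TPM in at least 1 library. Several of these calls depended on the quantification: the second detected 27 of the 30, with means of 12.8 TPM for Aldh1l2 (0.51 in the gene tables), 8.74 for Slc7a5 (0.79), 6.98 for Tnfrsf10b (0.37) and 3.19 for Cth (0.05). It likewise detected 26 of 26 genes of the XBP1 and ATF6 list and 13 of 17 of the sensor list described next. The second quantification also detected more protein-coding genes as a whole, 53.7% beside 44%. The ATF4 and CHOP list had 16 of 26 genes past the filter lowest in replicate 2, where 33.3% of protein-coding genes past the filter were.

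Of 26 XBP1 and ATF6 targets, 24 were detected, where 44% of protein-coding genes were, with a median of 3.78 ± 0.11. The ER chaperone genes Hsp90b1 (89.57, 60.90 and 85.32 TPM) and Hspa5 (67.07, 42.28 and 57.93 TPM) and the degradation factor Sel1l (70.97, 54.54 and 58.22 TPM) were highest, and the chaperone cofactor Sdf2l1 was lowest (mean 0.587 TPM). Each of the 3 highest was lowest in replicate 2, as were 18 of the 25 genes past the filter, beside 33.3% of protein-coding genes. Of 17 relatives of the sensors and processing factors, 12 were detected, beside the same 44%, with a median of 3.88 ± 0.04. Nfe2l1, an ER-held transcription factor (mean 57.0 TPM), Bcl2l11, which promotes apoptosis (55.9 TPM), and Crebzf (51.3 TPM) led. Ern2, the epithelial paralog of Ern1, had 2 counts in replicate 3 and 0 in the others. In the eIF2 list 7 of 17 and in the sensor list 6 of 13 were lowest in replicate 2, beside the same 33.3%. The counts of these lists were not compared by a test.

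**Figure D5:**
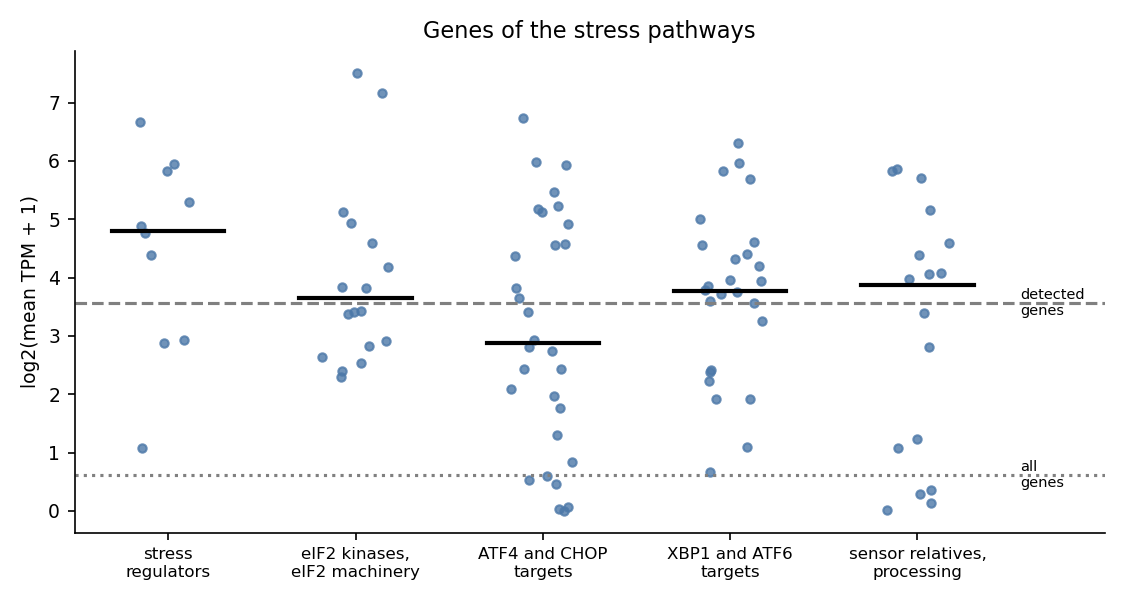
Mean level of each gene, as log2(mean TPM + 1), in the 10 stress regulators and 4 pathway lists, with the mean of the library medians as a black bar. The regulators' median (4.81) and those of 3 lists lie above the dashed median of detected protein-coding genes (3.56). That of the ATF4 and CHOP targets (2.88) lies below it, but it covers all 30 targets, of which 22 were detected. The black bars include genes not detected and the dashed line does not, so these sets are unlike. The dotted line is the median of all protein-coding genes (0.61).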

How the data were processed

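Every library came with a gene-level table and a pair of transcript-level tables. The deposited gene-level table and the transcript-level table that goes with it hold expected counts, TPM and posterior mean TPM, under RSEM column names per the file headers. Their TPM credibility bounds are treated as a score, as deposited by the authors without a stated level. The other transcript-level table, called the second quantification, holds estimated counts and TPM under kallisto column names per the file headers. Deposited notes give mm10 and GENCODE M21; the aligner, like the strand setting, is not given in the sources used here. Of 81881 rows, 55536 are annotated genes; the other rows held 1.75%, 0.396% and 0.239% of counts in replicates 1 to 3 and stayed out of totals and fits.

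Expected counts were rounded for edgeR 4.0.16 in R 4.3.3 (filterByExpr, TMM, estimateDisp with an intercept only; log2 CPM with a prior count of 2), checked on simulated data. DESeq2 1.42.0 was an alternative. Folds between genes are plain ratios of TPM, and differences are on the log2(TPM + 1) scale, tested with exact two-sided sign-flips over libraries. Transcript shares use transcript TPM. Promoters are RefSeq GRCm38.p6. Tables were handled in pandas 2.3.3 and numpy 2.4.6 under Python 3.11.15, the sign flips were enumerated in full, and plots were drawn in matplotlib 3.10.9.

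The members and lists were chosen with earlier results of these data known. All 10 members are named; of each list, the 3 genes with the highest mean TPM and the lowest one; and the 3 detected genes nearest in level to each of the 2 highest members. Genes of the ATF4 and CHOP list below 1 TPM, some transcripts, overlapping genes and the genes under other observations were named after their values were seen. Gcn1 was not matched by name. Alternatives covered scaling, filters, pseudocount, quantification, detection level and left-out libraries.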

Additional observations from a re-analysis of the deposited data

How the results depend on the processing

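With 3 libraries of 1 group, the sign-flip test cannot pass a threshold of 0.05, so stability refers to direction and size. Of 68 alternative values of the pair differences, counts and median BCV, 0 reversed, and 65 kept their direction and side of the threshold or, for counts and the median BCV, lay within 1.5 times. Among these, Ern1 minus Atf6 (1.08) was 1.5 and Atf4 minus Ddit3 (-0.58) was -1.17 in the second quantification, moves beyond 1 SD. At 5 TPM, 14 rather than 22 of the ATF4 and CHOP targets were detected. The count of detected genes with under 50% protein_coding transcript share, 2, ranged from 0 to 2 when 1 replicate was left out. The count of genes lowest in replicate 2, 8, was 7 with DESeq2 size factors, where Ppp1r15b no longer was, and 10 with library totals alone. Of 50 alternative mean levels, 43 moved by less than 1 SD; 6 of the others came with the second quantification (Ppp1r15b, Atf4, Xbp1, Eif2ak3, Ern1 and Trib3) and 1 with posterior mean TPM (Xbp1), and the cause was not tested. Depth limits Chac1 most, with 19 to 33 counts. The share of IRE1-cut Xbp1 was not run, because no annotated transcript represents it. No paired analysis was possible because all libraries belong to 1 group.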

Other observations

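The 11 protein-coding genes whose log2 CPM deviation in replicate 2 was lower than that of Ppp1r15a were listed after their values were seen. They were Gm49369 (-3.05), Tnfsf9 (-1.89), Gm29094 (-1.83), Hspa1a (-1.74), Cxcl1 (-1.62), Hspa1b (-1.53), Ccl12 (-1.51), Prkg1 (-1.35), Rgs1 (-1.32), Lipg (-1.31) and Spp1 (-1.31). The cytokine and chemokine genes among them are Tnfsf9, at 35.80, 5.27 and 40.46 TPM in replicates 1, 2 and 3, Cxcl1, at 12.95, 3.64 and 31.81 TPM, and Ccl12, at 33.22, 3.64 and 8.83 TPM. The heat shock protein genes Hspa1a (14.63, 0.71 and 1.42 TPM) and Hspa1b (11.16, 0.63 and 0.97 TPM) were high in replicate 1 only. They are near-identical copies, so the division of reads between them is uncertain. Rgs1, a regulator of G protein signalling, stood at 266.13, 56.15 and 169.85 TPM. In Tnfsf9, as in Ppp1r15a, replicates 1 and 3 were close to each other and replicate 2 was low, whereas Ccl12 and both heat shock genes set replicate 1 apart from the others. Gm49369 depended on the quantification, with 56.75, 2.57 and 72.56 TPM in the gene table and 265, 203 and 247 TPM in the second.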
